A study of Mus musculus with 24 samples.

Results

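Rapsn, Cd79b, Dapk1, Hacd4 and Plin3 are 5 genes whose RNA was much less abundant in naive microglia after deletion of Dicer1, and they are described here through demyelination and remyelination. They were chosen by name, with the results of the naive comparison known, for a large difference between Cre+ and Cre- libraries in the naive state. The file listed 49315 gene identifiers, of which 17579 passed a filter on low counts and were tested, and all 5 genes were among them. Their naive values are therefore a description, and tests are given only for the other states.

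The RNA came from flow-sorted CD45int CD11b+ brain microglia, and 24 libraries fell into 8 groups of 3. Cre+ mice carried the tamoxifen-activated recombinase of the Cx3cr1creERT2 allele, under the control of the microglial and macrophage gene Cx3cr1, and were Dicer1 KO after tamoxifen, while Cre- mice were labelled WT. All groups, Cre- included, received tamoxifen. The 4 states, each with 3 Cre+ and 3 Cre- libraries, were naive (tamoxifen alone), demyelination (6 weeks of cuprizone in the diet, tamoxifen at 4 to 5 weeks) and 2 remyelination groups (6 weeks of cuprizone, then 6 weeks of normal diet). The labels of the naive and demyelination groups also give tamoxifen at the start. In the first remyelination group tamoxifen was given at the start, at 4 to 5 weeks, and in the second at the peak, at 5 weeks of cuprizone feeding. The series text does not say whether 4 to 5 weeks is an age or a time. The 3 libraries of a group are called biological replicates, and the sources do not say whether animals were pooled. Cre+ cells also differ from Cre- cells in having the recombinase inserted at Cx3cr1.

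Microglia are the resident macrophages of the brain and clear myelin debris when cuprizone, a copper chelator, kills oligodendrocytes. Dicer1 encodes the RNase that cuts precursor hairpins into mature miRNAs, which lower the mRNAs they pair with. The 5 genes have unlike roles. Rapsn encodes rapsyn, which clusters acetylcholine receptors at the neuromuscular junction, and Cd79b encodes a signalling subunit of the B-cell receptor. Dapk1 encodes a calmodulin-regulated kinase of cell death and autophagy, Hacd4 encodes a member of the 3-hydroxyacyl-CoA dehydratase family of very-long-chain fatty acid elongation, and Plin3 encodes a perilipin that coats lipid droplets.

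Naive libraries held 19.48 to 44.53 M counts (M for mega) and demyelination libraries 21.87 to 32.71 M. Remyelination libraries held fewer, 8.87 to 12.56 M in the start-tamoxifen and 8.94 to 12.09 M in the peak-tamoxifen groups. Values are CPM, counts per M counts with TMM-scaled library sizes. The summed level of 10 microglia markers was 57706 to 63714 CPM in naive Cre+ and 60092 to 61968 CPM in naive Cre- libraries. It was at least 32155 CPM in every library, and 2 of the 10 markers were called lower in naive Cre+ libraries. Naive marker sums were lower in Cre+ for border macrophages (10.06 to 11.96 against 16.36 to 23.22 CPM) and astrocytes (67.61 to 82.73 against 95.73 to 180.7 CPM). Endothelial and mural marker sums were also lower (25.6 to 36.88 against 37.16 to 51.75 CPM). The median log2 fold change of these 6 markers was 0.30, the other way, with 1 called lower and 0 higher. Medians were -0.28 for border macrophage markers (1 called higher, 1 lower) and -0.75 for astrocyte markers (1 called lower). Neuron marker sums were higher in Cre+ (5.85 to 6.58 against 2.28 to 4.13 CPM), with a median of 1.02 and 1 marker called higher. The part of these cell types was not tested. Counts over all Dicer1 exons were called higher in naive Cre+ libraries (21.81, 22.06 and 24.31 CPM) than in naive Cre- libraries (18.55, 11.1 and 12.07 CPM), at a log2 fold change of 0.72 (SE 0.16, adjusted p = 0.00151), and in no other state. Since the table does not separate the deleted exons, this neither shows nor checks the deletion. Cx3cr1 marked 3 Cre+ libraries that stood apart from the others. It was at 227 CPM in naive Cre+ replicate 1, and at 104 and 89.6 CPM in demyelination Cre+ replicates 1 and 3, against 2313 to 4571 CPM in the other 9 Cre+ libraries and 5277 to 12254 CPM in Cre- libraries. The labels give these 3 the same genotype as the other Cre+ libraries and not the number of Cx3cr1creERT2 alleles, and whether they differ in it was not tested. The members' values in those states are also given without these 3 libraries. For the gene lists, counts called in naive microglia and sizes in demyelination are given without them. In bulk RNA, fewer cells that contain a transcript and less of it per cell cannot be told apart.

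In naive microglia the 5 genes were not absent from Cre+ libraries but lay at 19.7 to 21.9% of their Cre- means. Naive Cre+ replicate 1, the library with low Cx3cr1, was lowest for all 5 genes (7.02 to 15.6% of the Cre- mean), and replicates 2 and 3 lay at 24.9 to 31.8% and 19.9 to 25.9%. The fitted log2 fold changes of Cre+ over Cre- were -2.26 for Rapsn, -2.17 for Cd79b, -2.28 for Dapk1, -2.28 for Hacd4 and -2.16 for Plin3. Without the libraries with low Cx3cr1 they were -2.13, -1.93, -2.02, -1.93 and -2.02 in the same order of genes. Of all genes tested, 13.7% were called lower in naive Cre+ microglia, and in 20.4% all 3 Cre+ libraries lay below all 3 Cre- libraries, as they did for each of the 5. Among 1831 genes that were called lower without overlap at a mean log2 CPM of at least 2, the 5 ranked from 8 to 16. The strongest was Ccr1, a chemokine receptor, at -3.52. Just outside Plin3, the weakest of the 5, lay Gm22513 at -2.10, Chst7 at -2.10 and Anxa5 at -2.06, and just inside it lay Cd79b, Gm31410 at -2.20 and Gm13391 at -2.24.

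**Figure D1:**
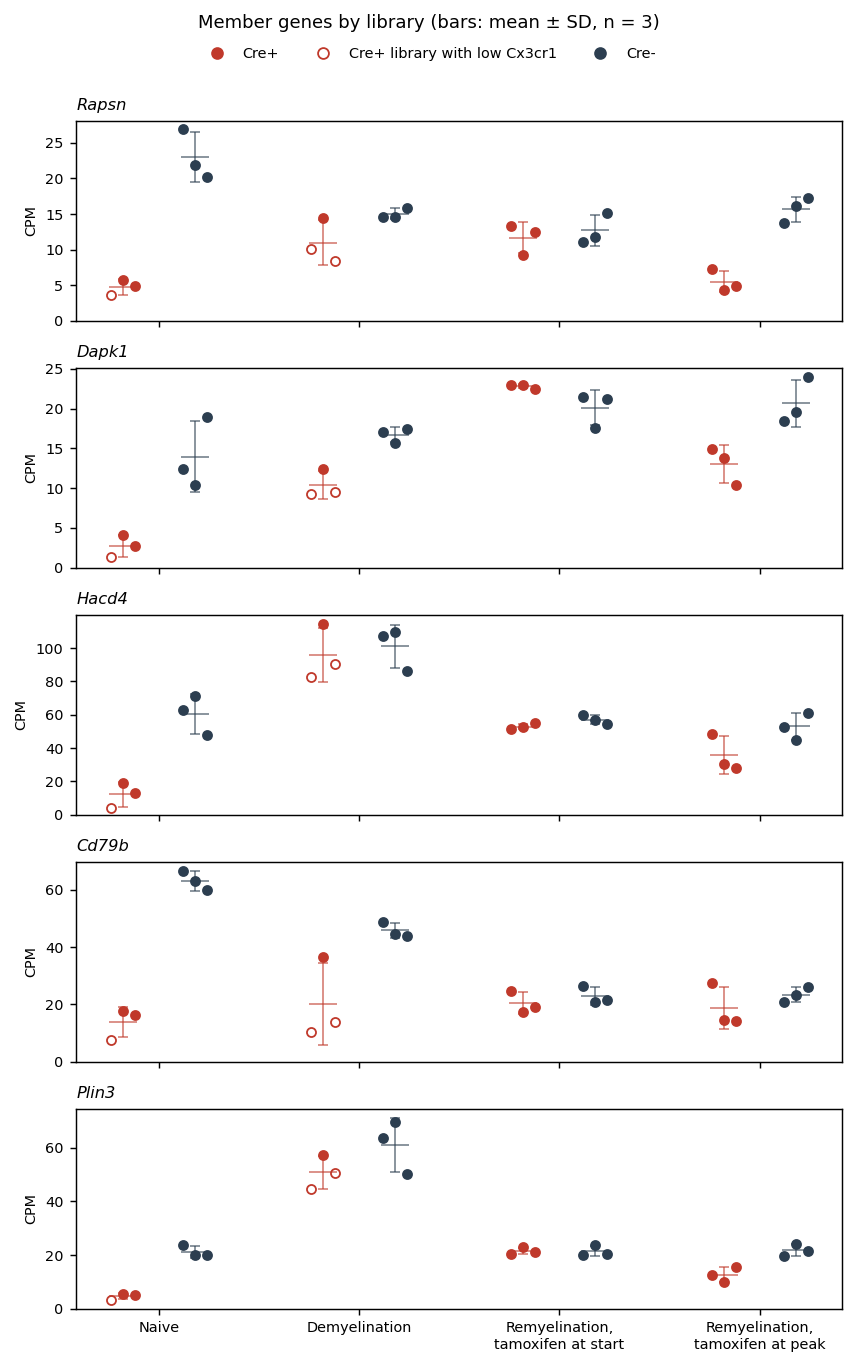
CPM (linear axes from 0) of each gene in every library, by state, with Cre+ left of Cre-. Points are libraries, bars are the mean ± SD of 3, and hollow points are the 3 Cre+ libraries with low Cx3cr1. The naive groups are separate for every gene, the start-tamoxifen groups lie close together, and Rapsn, Dapk1 and Plin3 separate again after tamoxifen at the peak.

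Expressed per kb of merged exon, Cd79b was the most abundant of the 5 RNAs in naive microglia, at a mean of 9.69 CPM per kb in Cre+ and 44.2 CPM per kb in Cre- libraries. Dapk1 was the least abundant, at 0.305 CPM per kb in Cre+ and 1.55 CPM per kb in Cre- libraries. Rapsn lay at 2.62 CPM per kb in Cre+ and 12.7 CPM per kb in Cre- libraries, so the RNA of this muscle scaffold was present in Cre- microglia at a level above that of Plin3 (1.23 CPM per kb in Cre+, 5.63 CPM per kb in Cre-). The order of the 5 genes was the same in both genotypes.

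Rapsn (ENSMUSG00000002104) spans chr2:91035620-91045729 on the plus strand (GRCm38, GENCODE M21) and has 1802 bases of merged exon. In naive microglia it had 3.56, 5.73 and 4.88 CPM in Cre+ and 26.9, 21.84 and 20.19 CPM in Cre- libraries. In demyelination it had 10.11, 14.43 and 8.42 CPM in Cre+ and 14.63, 14.62 and 15.89 CPM in Cre- libraries. The 3 Cre+ values lay below the Cre- values, but Cre+ replicate 2, which kept its Cx3cr1, came close to them. In remyelination with tamoxifen at the start it had 13.29, 9.19 and 12.48 CPM in Cre+ and 11.09, 11.82 and 15.18 CPM in Cre- libraries, and these groups overlapped. After peak tamoxifen it had 7.21, 4.39 and 4.89 CPM in Cre+ and 13.73, 16.09 and 17.21 CPM in Cre- libraries, so that the groups were again apart and all Cre+ values were at 28.0 to 46.0% of the Cre- mean.

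Rapsn was called lower in Cre+ microglia after tamoxifen at the peak, with a log2 fold change of -1.51 (SE 0.22, 95% interval -1.97 to -1.06, adjusted p = 5.6e-05, edgeR quasi-likelihood test). The difference was not called in demyelination (-0.45, SE 0.20, adjusted p = 0.163, and -0.02 without the libraries with low Cx3cr1) or with tamoxifen at the start (-0.13, interval -0.56 to 0.30, adjusted p = 0.91). The genotype difference itself was larger with tamoxifen at the peak than at the start, by -1.38 (SE 0.30, adjusted p = 0.00957). Start- and peak-tamoxifen libraries have titles in different styles, so timing and library set cannot be told apart in this difference. By mean level, naive Cre- (22.97 ± 3.49 CPM) stood above the other groups and demyelination Cre+ (10.99 ± 3.1 CPM) stood above peak-tamoxifen Cre+ (5.49 ± 1.51 CPM) and naive Cre+ (4.72 ± 1.09 CPM, SD, n = 3 each), while the other neighbours in the order overlapped. The only overlapping annotated exon, of Gm13778 on the other strand, shares 4 bases with it.

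Cd79b (ENSMUSG00000040592) spans chr11:106311341-106314762 on the minus strand, with 1431 bases of merged exon. Naive Cre+ libraries had 7.68, 17.54 and 16.38 CPM and naive Cre- libraries 66.75, 63.12 and 59.85 CPM. Demyelination Cre+ libraries had 10.42, 36.6 and 13.71 CPM and demyelination Cre- libraries 48.94, 44.74 and 44.08 CPM. The groups did not overlap, and the high Cre+ value was again replicate 2. Start-tamoxifen Cre+ libraries had 24.67, 17.26 and 19.28 CPM and start-tamoxifen Cre- libraries 26.6, 20.8 and 21.73 CPM. Peak-tamoxifen Cre+ libraries had 27.37, 14.62 and 14.29 CPM and peak-tamoxifen Cre- libraries 21.02, 23.14 and 26.26 CPM. Both remyelination pairs overlapped, and peak-tamoxifen Cre+ replicate 1 was above all Cre- values.

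The Cd79b difference had its largest tested size in demyelination, at a log2 fold change of -1.18 (SE 0.37, interval -1.96 to -0.41), and its adjusted p of 0.0537 missed the threshold of 0.05 in the quasi-likelihood test. The DESeq2 test gave -1.14 with an adjusted p of 0.0283, and the value was -1.92 without Cre+ replicate 2 and -0.28 without both demyelination libraries with low Cx3cr1. It was -0.18 (interval -0.99 to 0.64) with tamoxifen at the start and -0.32 (interval -1.15 to 0.50) with tamoxifen at the peak, with adjusted p of 0.945 and 0.661. By mean level, naive Cre- (63.24 ± 3.45 CPM) and demyelination Cre- (45.92 ± 2.64 CPM) stood apart from each other and from the rest. The other 6 groups formed a chain of overlapping neighbours from 23.47 to 13.87 CPM (means of 3).

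Defining B-cell transcripts were near 0 in every library: Ms4a1 reached 0.57 CPM, Pax5 0.19 CPM and Cd79a, the partner of Cd79b in the receptor, 2.18 CPM. The summed level of the 10 B-cell markers was 489 to 580 CPM in naive Cre+ and 879 to 1082 CPM in naive Cre- libraries, and 333 to 430 CPM in demyelination Cre+ against 503 to 611 CPM in demyelination Cre- libraries. Most of it was Ighm, the immunoglobulin mu heavy chain, with a mean of 508 ± 43.1 CPM in naive Cre+ and 906 ± 105 CPM in naive Cre- libraries (SD, n = 3 each). Of the 10 markers, 4 passed the filter, and 3 of these were called lower in demyelination and 2 after tamoxifen at the peak. Without the libraries with low Cx3cr1, 2 were still called lower in naive microglia. In demyelination 1 Cre+ library then remains, and the log2 fold changes were -2.1 for Cd79a, -0.33 for Ighm and -0.17 for Ighd. With all libraries they were -1.75 (adjusted p = 0.04996), -0.58 and -0.73. Cd79a was low there, at a mean of 0.45 CPM in Cre+ and 1.48 CPM in Cre- libraries.

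Dapk1 (ENSMUSG00000021559) spans chr13:60601947-60763191 on the plus strand, with 9012 bases of merged exon. Naive Cre+ libraries had 1.36, 4.11 and 2.77 CPM and naive Cre- libraries 12.46, 10.39 and 18.94 CPM. Demyelination Cre+ libraries had 9.26, 12.45 and 9.56 CPM and demyelination Cre- libraries 17.05, 15.61 and 17.45 CPM, with no overlap. Start-tamoxifen Cre+ libraries had 22.91, 22.96 and 22.48 CPM and Cre- libraries 21.49, 17.6 and 21.22 CPM. Here alone among the 4 states every Cre+ value lay above every Cre- value. The share of all genes in that order was not counted, and the reverse order held for 9.48% of all genes in this state. Peak-tamoxifen Cre+ libraries had 14.96, 13.76 and 10.34 CPM and Cre- libraries 18.46, 19.54 and 23.96 CPM, again without overlap and with Cre+ lower.

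No Dapk1 difference was called: the log2 fold changes were -0.68 in demyelination (SE 0.24, interval -1.17 to -0.19, adjusted p = 0.0731), 0.18 with tamoxifen at the start (interval -0.31 to 0.67, adjusted p = 0.881) and -0.66 with tamoxifen at the peak (SE 0.24, interval -1.17 to -0.16, adjusted p = 0.0816). The DESeq2 test called it lower in demyelination (adjusted p = 0.0474) and after tamoxifen at the peak (adjusted p = 0.0349). Without the libraries with low Cx3cr1 the demyelination value was -0.38. Naive Cre+ (2.74 ± 1.38 CPM) lay below all other groups, and start-tamoxifen Cre+ (22.79 ± 0.263 CPM), peak-tamoxifen Cre- (20.65 ± 2.91 CPM) and start-tamoxifen Cre- (20.11 ± 2.17 CPM) formed the top of the order (SD, n = 3 each). Demyelination Cre- (16.7 ± 0.965 CPM) did not overlap with start-tamoxifen Cre-, and the neighbours from there down to demyelination Cre+ (10.42 ± 1.76 CPM) overlapped.

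Hacd4 (ENSMUSG00000028497) spans chr4:88396144-88438928 on the minus strand, with 6756 bases of merged exon, and 746 of these overlap with exons of Focad on the other strand. Whether counting used strand is not given in the sources used here. Without strand, reads from Hacd4 and Focad cannot be told apart there, and its values are uncertain. Naive Cre+ libraries had 4.26, 19.28 and 13.04 CPM and naive Cre- libraries 63.07, 71.12 and 47.74 CPM. Focad had 9.08 to 12.64 CPM in naive Cre+ and 14.38 to 17.75 CPM in naive Cre- libraries. In demyelination Hacd4 had 82.91, 114.4 and 90.49 CPM in Cre+ and 107.4, 109.4 and 86.03 CPM in Cre- libraries. These were its highest levels in each genotype, and the groups overlapped. In start-tamoxifen remyelination it had 51.55, 52.36 and 54.89 CPM in Cre+ and 59.77, 57.07 and 54.19 CPM in Cre- libraries. With tamoxifen at the peak it had 48.73, 30.36 and 27.83 CPM in Cre+ and 52.83, 44.8 and 61.33 CPM in Cre- libraries, where Cre+ replicate 1 lay within the Cre- range.

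No Hacd4 difference was called. The log2 fold changes were -0.07 in demyelination (interval -0.74 to 0.59, adjusted p = 0.929), -0.11 with tamoxifen at the start (interval -0.79 to 0.58, adjusted p = 0.965) and -0.57 with tamoxifen at the peak (interval -1.27 to 0.13, adjusted p = 0.304). Without the libraries with low Cx3cr1 the demyelination value was 0.22. The groups of demyelination (95.94 ± 16.4 CPM in Cre+, 101 ± 13 CPM in Cre-) overlapped with each other and stood above the rest, and peak-tamoxifen Cre+ (35.64 ± 11.4 CPM) and naive Cre+ (12.19 ± 7.55 CPM) were lowest, each apart from its neighbours in the order of means (SD, n = 3 each). The 4 groups between, with means of 52.93 to 60.64 CPM, overlapped with their neighbours.

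Plin3 (ENSMUSG00000024197) spans chr17:56277476-56292873 on the minus strand, with 3786 bases of merged exon. Naive Cre+ libraries had 3.32, 5.53 and 5.12 CPM and naive Cre- libraries 23.88, 20.01 and 20.03 CPM. Demyelination Cre+ libraries had 44.75, 57.12 and 50.64 CPM and demyelination Cre- libraries 63.47, 69.66 and 50.13 CPM. These were the highest levels in each genotype, and the groups overlapped through Cre- replicate 3. Start-tamoxifen Cre+ libraries had 20.39, 22.83 and 21.2 CPM and Cre- libraries 20.12, 23.74 and 20.55 CPM. Peak-tamoxifen Cre+ libraries had 12.68, 9.98 and 15.42 CPM and Cre- libraries 19.6, 24.27 and 21.57 CPM. The start-tamoxifen groups covered the same range, and the peak-tamoxifen groups did not overlap.

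Plin3 was called lower in Cre+ microglia after tamoxifen at the peak, at a log2 fold change of -0.79 (SE 0.17, interval -1.13 to -0.44, adjusted p = 0.00282). It was not called in demyelination (-0.26, interval -0.57 to 0.04, adjusted p = 0.294), where the value without the libraries with low Cx3cr1 was -0.05. With tamoxifen at the start the log2 fold change was 0.00 (interval -0.33 to 0.33, adjusted p = 1.00). The difference between the peak and start genotype effects was -0.79 (SE 0.23) with an adjusted p of 0.0549, which missed the threshold, and the DESeq2 test gave 0.0242. Among the 12 fits that left out 1 of its libraries it was called in 1, without peak-tamoxifen Cre+ replicate 3 (-0.95, adjusted p = 0.0325), and the adjusted p reached 0.167 in the others. By mean level, both demyelination groups (50.84 ± 6.19 CPM in Cre+, 61.09 ± 9.98 CPM in Cre-) were highest, 4 groups between 21.3 and 21.81 CPM overlapped, and peak-tamoxifen Cre+ (12.69 ± 2.72 CPM) and naive Cre+ (4.66 ± 1.17 CPM) lay below them and apart (SD, n = 3 each).

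Set side by side, 0 of the 5 genes were called in demyelination, where 3.48% of all genes tested were called lower in Cre+. The 5 log2 fold changes had a median of -0.45, against -0.01 over all genes, and 3 of the 5 had an unadjusted p below 0.05 in the quasi-likelihood test, as did 22.8% of all genes. The DESeq2 test called 2 of the 5 lower, against 3.72% of the genes it gave an adjusted p. All 3 Cre+ libraries lay below all 3 Cre- libraries for 3 of the 5 genes, against 15.4% of all genes. Cre+ replicate 2, with Cx3cr1 at 41.5% of the Cre- mean, was the highest Cre+ library for all 5 genes (74.5 to 113% of the Cre- mean). Replicates 1 and 3, with Cx3cr1 at 1.87 and 1.61%, lay at 22.7 to 82.1% and 29.9 to 89.6%. Without those libraries the 5 values moved to between -0.38 and 0.22. With all libraries 1612 genes were called over the whole table. Without Cre+ replicate 2 instead, Rapsn (-0.68, adjusted p = 0.0289), Dapk1 (-0.82, adjusted p = 0.0449) and Cd79b (-1.92, adjusted p = 0.000295) were called lower. The share of all genes called in that fit is not given here. Over the 6 fits that left out 1 library of this comparison, 422 to 2165 genes were called over the whole table. The fit without low-Cx3cr1 libraries has 1 Cre+ library, which was assumed to vary like the other groups. Neutrophil markers also differed between these groups, with sums of 1519, 1377 and 1206 CPM in Cre+ and 198, 536 and 798 CPM in Cre- libraries, and monocyte markers had sums of 457 to 764 CPM in Cre+ libraries and 200 to 324 CPM in Cre- libraries. Of the 6 neutrophil markers 0 were called in the quasi-likelihood test and 0 had an unadjusted p below 0.05. Of the 5 monocyte markers 1 was called higher (Fn1, 1.68) and 1 lower (Ccr2, -1.56). The median log2 fold change of the 5 monocyte markers was -0.99, against the direction of their sum. Their part in the result was not tested.

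**Figure D2:**
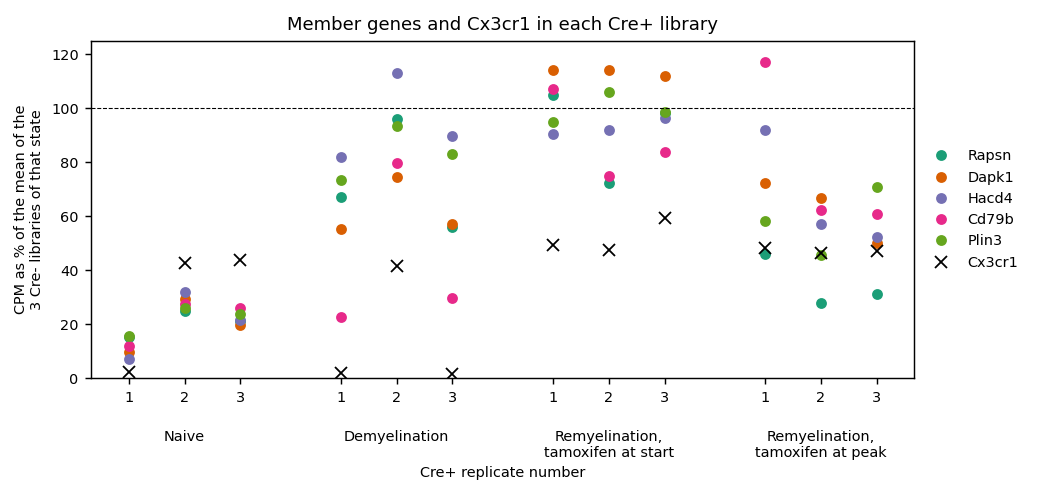
CPM of the 5 genes (coloured points) and of Cx3cr1 (crosses) in each of the 12 Cre+ libraries, as % of the Cre- mean in the same state (n = 3, dashed line at 100). The naive points lie between 7.02 and 31.8%, and in demyelination replicate 2 has the highest point of every gene.

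After tamoxifen at the start, 0 of the 5 genes were called in remyelination, 0 had an unadjusted p below 0.05 and the DESeq2 test also called 0. The 5 values had a median of -0.11, against -0.04 over all genes. In this state 0.0% of all genes were called lower in the quasi-likelihood test (1147 at an unadjusted p below 0.05, and 27 by the DESeq2 test), and in 9.48% all Cre+ libraries lay below all Cre- libraries, as they did for 0 of the 5. The intervals give the sizes that these libraries leave possible, the widest being that of Cd79b. Endothelial and mural marker sums were higher in Cre+ (75.5 to 114.2 against 49.2 to 62.9 CPM). B-cell marker sums were lower (461.5 to 469.0 against 561.9 to 620.3 CPM). Neutrophil marker sums were 599, 884 and 318 CPM in Cre+ and 464, 3588 and 1489 CPM in Cre- libraries. In these 3 lists 0 markers were called, and 2 of the 6 neutrophil markers had an unadjusted p below 0.05. The part of these cell types was not tested.

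After tamoxifen at the peak, 2 of the 5 genes, Rapsn and Plin3, were called lower, where 4.02% of all genes were. The 5 values had a median of -0.66, against -0.01 over all genes. Rapsn, Dapk1 and Plin3 had all Cre+ libraries below all Cre- libraries, which held for 12.1% of all genes. Cre+ replicate 1 was the highest Cre+ library for 4 of the 5 genes, Plin3 being the exception. Cre+ replicate 3 stood apart in neutrophil markers, with a sum of 4322 CPM against 395 and 379 CPM in Cre+ replicates 1 and 2 and 151 to 238 CPM in Cre- libraries, and in monocyte markers, with 650 CPM against 91.3 and 108 CPM in the other Cre+ and 69.4 to 83.8 CPM in the Cre- libraries. In this state 1 of the 6 neutrophil and 1 of the 5 monocyte markers were called higher, and all 6 neutrophil markers had an unadjusted p below 0.05. Of the 6 endothelial and mural cell markers 3 were called lower, their summed level being 26.1 to 43.1 CPM in Cre+ against 51.0 to 83.9 CPM in Cre- libraries. Of the 5 astrocyte markers 1 was called lower, the list having a sum of 138.4 to 215.1 CPM in Cre+ against 259.1 to 434.6 CPM in Cre- libraries. The part of these cell types in the result was not tested. Without Cre+ replicate 3 Rapsn had a log2 fold change of -1.44 (adjusted p = 0.000825) and Plin3 of -0.95 (adjusted p = 0.00181), both still called by the quasi-likelihood test.

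The difference between the genotype effects of the tamoxifen timings was called for 1 of the 5 genes, Rapsn, against 3.77% of all genes called in either direction. Start-tamoxifen, peak-tamoxifen and demyelination libraries have titles in different styles, so timing or state cannot be told apart from library set here. The difference between the start-tamoxifen and demyelination effects was called for 0 of the 5, against 3.74% of all genes. Between start tamoxifen and demyelination the values were 0.86 for Dapk1 (adjusted p = 0.151), 1.01 for Cd79b (adjusted p = 0.333), 0.32 for Rapsn, 0.27 for Plin3 and -0.03 for Hacd4, 1 of them with an unadjusted p below 0.05 (18.6% of all genes), and the DESeq2 test called 0 (9.15% of its genes). The Cd79b value was 1.76 (adjusted p = 0.0116) without demyelination Cre+ replicate 2 and 0.15 without the libraries with low Cx3cr1. Without the low-Cx3cr1 libraries the Dapk1 value was 0.60, and the values of Rapsn, Plin3 and Hacd4 were -0.07, 0.10 and -0.29. For Dapk1 the peak-minus-start difference was -0.85 (SE 0.34, adjusted p = 0.168).

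**Figure D3:**
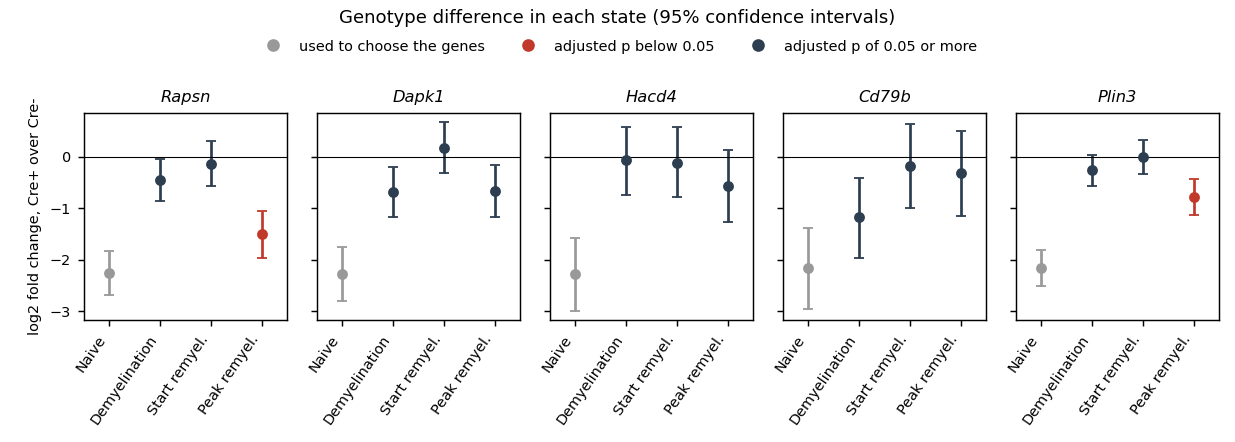
Fitted log2 fold change of Cre+ over Cre- for each gene in each state, with 95% confidence intervals. Grey points were used to choose the genes, red points are Rapsn (-1.51) and Plin3 (-0.79) with tamoxifen at the peak, the 2 that passed an adjusted p of 0.05, and dark points did not pass.

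Levels also differed between states within a genotype. Remyelination and demyelination libraries come from sets with different naming styles and depths, so state and library set cannot be told apart in these comparisons. Plin3 was lower in remyelination than in demyelination in all 4 comparisons, by log2 differences of -1.24 (start) and -2.0 (peak) within Cre+ and of -1.51 (start) and -1.48 (peak) within Cre- microglia, with adjusted p of 1.18e-07 or less. Hacd4 was lower in all 4 as well, by -0.86 and -1.43 within Cre+ (adjusted p = 0.0275 and 0.00123) and by -0.82 and -0.93 within Cre- microglia (adjusted p = 0.039 and 0.0201). Of the 4 Hacd4 calls only that of peak tamoxifen within Cre+ held when any 1 library was left out. The start call within Cre- was lost without any start-tamoxifen Cre- library or without demyelination Cre- replicate 1 or 2 (adjusted p of Hacd4 0.0747 to 0.102). The start call within Cre+ was lost without any start-tamoxifen Cre+ library or without demyelination Cre+ replicate 2 (0.0555 to 0.104), and the peak call within Cre- without peak-tamoxifen Cre- replicate 2 or demyelination Cre- replicate 1 or 2 (0.0569 to 0.0786).

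Cd79b was lower in remyelination within Cre- microglia, by -1.0 (start, adjusted p = 0.033) and -0.97 (peak, adjusted p = 0.0347), but with a correction for GC content and length these were -0.46 and -0.38 and no longer called. The start call was also lost without start-tamoxifen Cre- replicate 2 or 3 or any demyelination Cre- library (adjusted p of Cd79b 0.056 to 0.0926), and the peak call without any 1 of its 6 libraries (0.0527 to 0.0938). Within Cre+ microglia the Cd79b differences were 0.01 and -0.11, and without the libraries with low Cx3cr1 they were -0.85 and -1.01. Dapk1 was higher with tamoxifen at the start than in demyelination within Cre+ microglia, by 1.13 (adjusted p = 0.000255), while within Cre- microglia the difference was 0.27 (adjusted p = 0.349). Without the libraries with low Cx3cr1 the Cre+ value was 0.87. Rapsn was lower with tamoxifen at the peak than in demyelination within Cre+ microglia, by -1.0 (adjusted p = 0.00031), against 0.06 within Cre- microglia (adjusted p = 0.81). Its Cre+ value was -1.44 without the low-Cx3cr1 libraries. Without them the Plin3 values within Cre+ were -1.41 (start) and -2.22 (peak), and those of Hacd4 were -1.12 and -1.73. In each of these 4 comparisons 3 of the 5 genes were called, where 63.3% (start) and 58.7% (peak) of all genes were called within Cre+ and 54.7% and 58.5% within Cre- microglia, so the count of 3 in 5 is near that background. Without the low-Cx3cr1 libraries 1 demyelination Cre+ library remains, so only sizes are given from that fit and no count of genes called within Cre+ is read.

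Other genes of the members' pathways are given from lists that leave the 5 genes out. As a background for their counts, 2580 of the 17579 genes tested were called higher and 2402 lower in naive Cre+ microglia. In demyelination 1001 were called higher and 611 lower, with tamoxifen at the start 6 and 0, and with tamoxifen at the peak 1228 and 707. Whether a list departs from this background was not tested. Without the libraries with low Cx3cr1, 1 demyelination Cre+ library remains, and only sizes are given for the genes called there with all libraries. The log2 fold changes were then larger for Cd79a (-2.1) and Hacd2 (0.44). They were smaller for Ighm (-0.33), Cd22 (-0.42), Blnk (-0.20), Elovl5 (0.31), Mapk3 (0.28) and Bscl2 (0.18). In naive microglia the counts without the low-Cx3cr1 libraries were 0 higher and 4 lower for fatty acid elongation and 3 higher and 3 lower for B-cell receptor signalling, and those of the other 3 lists were the same as with all libraries. Of the acetylcholine receptor clustering list, 4 of 9 genes were abundant enough to be tested, and the only call over the 4 states was Agrn, the nerve-derived ligand agrin, at -0.56 (SE 0.15, adjusted p = 0.0157) after tamoxifen at the peak, with means of 14.99 ± 1.83 CPM in Cre+ and 22.16 ± 1.63 CPM in Cre- libraries (SD, n = 3 each). Its receptor Lrp4 was at -0.37 (adjusted p = 0.26) there, the adaptor Dok7 at -1.10 (adjusted p = 0.205) and the receptor subunit Chrnb1 at 0.28 (adjusted p = 0.732). The median of the 4 was -0.47 after tamoxifen at the peak, against -0.01 over all genes.

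In the B-cell receptor signalling list 14 of 16 genes were tested. In naive microglia 4 were called higher and 3 lower, in demyelination 0 higher and 4 lower, with tamoxifen at the start 0 in either direction and with tamoxifen at the peak 1 higher and 3 lower. Ighm, Cd22 and the adaptor Blnk were lower in naive, demyelination and peak-tamoxifen Cre+ microglia. Cd22, an inhibitory sialic acid receptor, had log2 fold changes of -2.63 in naive microglia, -0.93 in demyelination (adjusted p = 0.0433), -0.02 with tamoxifen at the start (adjusted p = 0.995) and -2.16 with tamoxifen at the peak (adjusted p = 0.000352). Its peak-tamoxifen means were 8.02 ± 2.06 CPM in Cre+ and 35.86 ± 7.69 CPM in Cre- libraries (SD, n = 3 each). Plcg2, the phospholipase that acts below the receptor, was higher after tamoxifen at the peak at 0.56 (adjusted p = 0.0114). The medians of the 14 genes lay between -0.10 and 0.07 in the 4 states.

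Of the DAPK list 9 of 10 genes were tested, and 3 were called higher in naive microglia, the largest being the related kinase Dapk3 at 1.93. The kinase Mapk3 was higher in demyelination at 0.34 (adjusted p = 0.0339) and Stk17b, another kinase of the DAPK family, after tamoxifen at the peak at 0.48 (adjusted p = 0.0303). The ubiquitin ligase scaffold Cul3 and the kinase Rps6ka1 were called in none of the 4 states. No gene of this list was called lower in any of the 4 states.

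Of the very-long-chain fatty acid elongation list 11 of 12 genes were tested, and 1 was called higher and 5 lower in naive microglia, among them the elongases Elovl6 at -1.83 and Elovl4 at -1.61. The dehydratase Hacd2 was at -0.33 in naive microglia and higher in demyelination, at 0.40 (adjusted p = 0.0324), as was the elongase Elovl5 at 0.49 (adjusted p = 0.00406). Hsd17b12, the ketoacyl reductase of the pathway, was called lower in naive microglia (-0.49) and not in the other states. Elovl2 was called lower after tamoxifen at the peak at -1.0 (adjusted p = 0.0453), at a low level of 2.17 ± 0.468 CPM in Cre+ and 4.36 ± 0.651 CPM in Cre- libraries (SD, n = 3 each).

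In the list of lipid droplets and mannose 6-phosphate receptors 14 of 18 genes were tested, and 3 were called higher and 3 lower in naive microglia. Plin2, another perilipin, was at -1.53 in naive microglia, with means of 18.09 ± 2.01 CPM in Cre+ and 52.38 ± 5.16 CPM in Cre- libraries (SD, n = 3 each). It was at 0.19 (adjusted p = 0.424) in demyelination, -0.14 (adjusted p = 0.825) with tamoxifen at the start and -0.39 (adjusted p = 0.0761) with tamoxifen at the peak. The lipid droplet gene Hilpda was at -1.04 in naive microglia and was called in none of the other states. Bscl2, which encodes seipin, was higher in demyelination at 0.37 (adjusted p = 0.0167), and the lipase gene Lipe was higher after tamoxifen at the peak at 0.39 (adjusted p = 0.0176). With tamoxifen at the start 0 of the 52 tested genes of the 5 lists were called in the quasi-likelihood test. An unadjusted p below 0.05 was found for 6 of them, and for 9.43% of all genes.

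**Figure D4:**
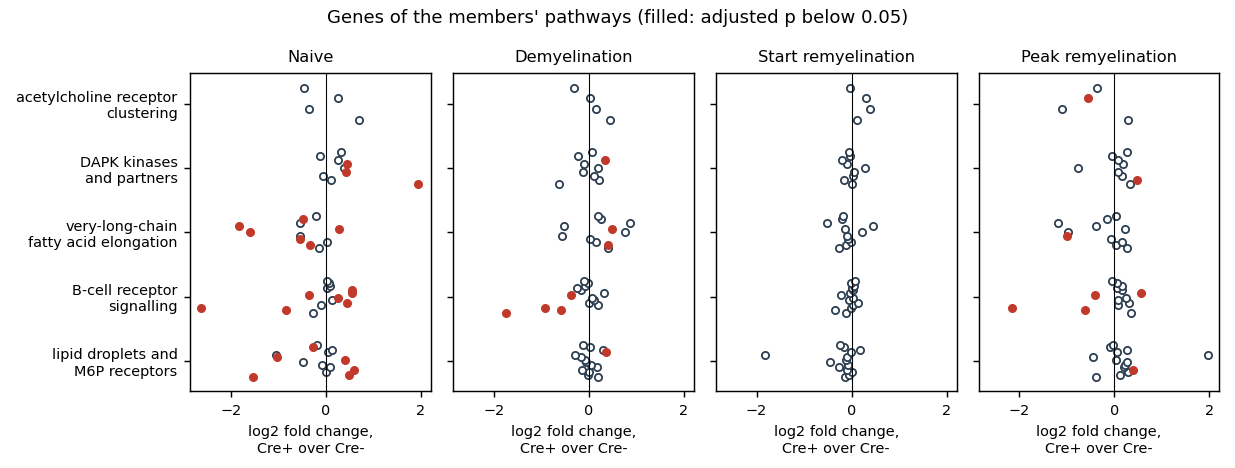
Log2 fold change of Cre+ over Cre- of each tested gene of the 5 pathway lists (1 point a gene, the 5 member genes left out), in the 4 states. Filled points passed an adjusted p of 0.05, the lowest being Cd22 at -2.63 in naive microglia, and no point is filled with tamoxifen at the start.

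Genes whose values over the 24 libraries were most like each member's were found by Pearson's r of log2 CPM after the mean of the 6 libraries of each state was subtracted. The naive difference that chose the members weighs heavily in this measure, so r over the 18 libraries of the other states follows in each case. For Rapsn the closest were Tnfsf13b (r = 0.961, 0.923 without naive), Tlr1 (0.958, 0.921) and Paox (0.958, 0.924). For Cd79b they were Chst7 (0.970, 0.936), Gatm (0.964, 0.926) and Tlcd2 (0.950, 0.896), and for Dapk1 Acvrl1 (0.979, 0.954), Slc39a11 (0.951, 0.757) and Stard8 (0.948, 0.832). For Hacd4 they were Gpr65 (0.977, 0.895), Fcrls (0.968, 0.828) and Ms4a4c (0.941, 0.583), and for Plin3 Anxa5 (0.969, 0.882), Tspan32 (0.944, 0.773) and Tnfsf13b (0.942, 0.822). Tnfsf13b, which encodes the B-cell survival cytokine BAFF, was thus named for both Rapsn and Plin3, and its log2 fold change was -1.32 in naive microglia, -0.28 in demyelination, 0.07 with tamoxifen at the start and -0.67 with tamoxifen at the peak (adjusted p = 0.0116). Between pairs of the 5 genes r ranged from 0.81 to 0.92, and from 0.43 to 0.79 without naive libraries.

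Promoter windows were available in RefSeq (GRCm38.p6) for 3 of the 5 genes and are shown because these genes were low together in naive Cre+ microglia. Each window runs from 250 bases before to 50 bases after the start, and the part printed is the stretch before the start that lies in no exon of GENCODE M21. It is chr4:88438929-88439165 on the minus strand for Hacd4, chr17:56290512-56290761 on the minus strand for Plin3 and chr13:60602111-60602210 on the plus strand for Dapk1. The Plin3 and Dapk1 stretches lie inside the longer gene spans of GENCODE M21. Capitals mark GGGCGG, a core bound by SP and KLF factors, or CCAAT, the NF-Y box, on either strand.
Hacd4: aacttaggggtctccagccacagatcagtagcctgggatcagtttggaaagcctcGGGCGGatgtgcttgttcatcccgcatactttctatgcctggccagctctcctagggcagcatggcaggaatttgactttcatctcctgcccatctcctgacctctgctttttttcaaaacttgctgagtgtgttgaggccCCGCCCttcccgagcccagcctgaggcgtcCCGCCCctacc
Plin3: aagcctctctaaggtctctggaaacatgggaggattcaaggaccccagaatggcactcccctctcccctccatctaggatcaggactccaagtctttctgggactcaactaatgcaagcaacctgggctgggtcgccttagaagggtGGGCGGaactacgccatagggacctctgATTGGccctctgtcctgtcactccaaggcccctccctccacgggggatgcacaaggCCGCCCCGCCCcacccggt
Dapk1: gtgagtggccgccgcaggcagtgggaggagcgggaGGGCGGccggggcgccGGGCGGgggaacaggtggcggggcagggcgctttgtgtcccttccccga
GGGCGG matched 3 times in the Hacd4 window, 3 times in the Plin3 window, where the last pair shares 1 base, and 2 times in the Dapk1 window. It occurs in 35.7% of the 32851 windows of the table. CCAAT matched 1 time, in Plin3, and occurs in 37.4% of windows. The letters GAGGAAGT (PU.1, in 3.20% of windows), TTGCNNAA (C/EBP, 10.8%), CACGTG (E-box, 7.15%) and TATAAA (the core box bound by TBP, 13.6%) matched in none of the 3 windows on either strand. GC content was 58.7% in the Hacd4, 59.3% in the Plin3 and 77.7% in the Dapk1 window.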

How the data were processed

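RNA from sorted brain microglia of 24 libraries was extracted with a column kit and prepared with an ultra-low-input kit, per the labels' protocols. Per the submitters' processing notes, reads were handled with Trimmomatic 0.36, STAR 2.5.2b, featureCounts of Subread 1.5.2 and DESeq2, on GRCm38. The deposited table holds the authors' raw counts per Ensembl gene; strand and multimapping settings are not given. Of 49315 identifiers, 48970 matched GENCODE M21.

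Counts were analysed with edgeR 4.0.16 (R 4.3.3): filterByExpr kept 17579 genes, libraries were scaled by TMM, and 8 group means were fitted to all 24 libraries (robust quasi-likelihood, 16 residual degrees of freedom). P-values are 2-sided, Benjamini-Hochberg adjusted over all genes tested, with a threshold of 0.05, and measure the spread between the 3 libraries of a group. Intervals are 95% and cover that spread. The procedure was tested on simulated data. No 2 libraries were identical.

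The 5 genes, the lists and the tests were chosen with earlier results of these data known. All 5 genes are described in every library. From each pathway list up to 4 genes with the smallest p over the demyelination and remyelination genotype comparisons are named, plus any called there. Genes called in naive microglia that are named beside them (Dapk3, Elovl4, Elovl6) were chosen after their values were seen. Alternatives were DESeq2 1.42.0 (test, size factors), no filter, a replicate block, the groups of a comparison alone, GC and length correction, and leaving out libraries.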

Additional observations from a re-analysis of the deposited data

Results flagged for a closer look

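The Cre+ minus Cre- difference of Rapsn differed between the tamoxifen timings in remyelination, by -1.38 on the log2 scale (peak minus start, SE 0.30, adjusted p = 0.00957, edgeR quasi-likelihood interaction test). It was negative and called under each alternative that was run, with values from -1.63 to -1.24 when 1 library was left out. The libraries of the timings have titles in different styles, so timing and library set cannot be told apart.

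Dapk1 in remyelination with tamoxifen at the start had all 3 Cre+ libraries above all 3 Cre- libraries. The difference was not called (log2 fold change 0.18, adjusted p = 0.881, quasi-likelihood test). The share of all genes in that order was not counted, and the reverse order held for 9.48% of all genes in this state. In naive, demyelination and peak-tamoxifen microglia all 3 Cre+ libraries lay below all 3 Cre- libraries, as in 20.4, 15.4 and 12.1% of all genes. The difference from demyelination (0.86, adjusted p = 0.151) and that of peak against start tamoxifen (-0.85, adjusted p = 0.168) were tested and not called, and the difference from naive was not tested.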

How the results depend on the processing

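Over the 9 tested comparisons, 548 member log2 fold changes kept their direction and their side of the threshold under an alternative, 33 were no longer called, 28 became called and 36 changed sign. The naive values stayed between -2.79 and -1.90. Among calls of the genotype comparisons, Rapsn and Plin3 after tamoxifen at the peak and the peak-minus-start difference of Rapsn held under each alternative run. Where a value changed, the cause was not tested.

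Without the 3 low-Cx3cr1 libraries, 81 genes were called in demyelination, 13 with tamoxifen at the start and 44 for start minus demyelination, and 3 members (Rapsn, Dapk1 and Plin3) for peak minus start. The same alternative was applied to the pathway and marker lists after seeing the data. In demyelination it leaves 1 Cre+ library, and the monocyte markers Ccr2 and Fn1 moved from -1.56 to -1.75 and from 1.68 to 1.17. Without a filter on low counts the genes called were 81 (start) and 1026 (start minus demyelination). They were 43 and 1359 with the DESeq2 test, and 40 and 1062 with the groups of the comparison alone. In demyelination, members called were 1 without a filter, 2 with the DESeq2 test, 1 with the groups alone and 1 with GC and length correction. For peak minus start they were 3, 2, 3 and 2 under the same 4 settings. For start minus demyelination they were 1 without a filter and 1 with the groups alone. Within Cre-, members called for start minus demyelination were 1 without a filter. The DESeq2 test called 12.8% of its genes in demyelination and 6.23% for peak minus start. Shares of all genes under the other settings are not given here, so these counts of members are not set against a background.

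Signs changed without the low-Cx3cr1 libraries for Hacd4 in demyelination (0.22), for Rapsn in start minus demyelination (-0.07 for the genotype effect, -0.32 within Cre+) and for Cd79b within Cre+ (-0.85). GC and length correction gave -0.01 for Plin3 with tamoxifen at the start, 0.03 for the Hacd4 start-minus-demyelination effect, 0.01 for Rapsn and -0.16 for Dapk1 (start) and -0.13 for Dapk1 (peak) within Cre-, and -0.18 for Dapk1 and 0.58 for Cd79b (peak) within Cre+. DESeq2 size factors and the DESeq2 test gave 0.00 for Plin3 with tamoxifen at the start, with the sign turned, and no filter gave -0.05 for Cd79b (start) within Cre+.

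With 1 library left out, genes called ranged from 422 to 2165 in demyelination, 1 to 7 with tamoxifen at the start, 853 to 2117 at the peak, 89 to 1173 for start minus demyelination and 255 to 898 for peak minus start. Members called ranged from 0 to 3 in demyelination, 0 to 1 for start minus demyelination, 1 to 2 for peak minus start, and 1 to 2 for start and for peak minus demyelination within Cre-. Values that crossed 0 were those of Hacd4 in demyelination (-0.21 to 0.03) and start minus demyelination (-0.12 to 0.11), of Rapsn (-0.24 to 0.02) and Plin3 (-0.04 to 0.08) with tamoxifen at the start, of Cd79b in peak minus start (-0.52 to 0.01), of Rapsn in peak minus demyelination within Cre- (-0.03 to 0.13) and start minus demyelination within Cre+ (-0.05 to 0.34), and of Cd79b within Cre+ (-0.28 to 0.78 for start, -0.49 to 0.67 for peak).

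Same-numbered Cre+ and Cre- libraries had residual correlations of -0.035 to 0.294, with every pair above 0.1 in no state, so the numbers were not taken to pair samples. Every library correlated best with its own number in the naive and peak-tamoxifen states (3 of 3), and not in the others, which is a hint from the data and not from the design. With the number as a replicate block, 1562 genes were called in demyelination, 7 with tamoxifen at the start and 1957 at the peak. Members called then fell to 1 for start minus demyelination within Cre-, where Hacd4 (adjusted p = 0.0668) and Cd79b (0.0515) were lost. The Hacd4 call for start minus demyelination within Cre+ (0.0521) and the Cd79b call for peak minus demyelination within Cre- (0.0587) were lost too, and Cd79b in peak minus demyelination within Cre+ was 0.01. The part of depth, with totals as low as 8.87 M counts, in the width of the intervals was not tested.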
